A study of Mus musculus with 55 samples.

Results

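The response described here is that of mouse epiblast stem cells (EpiSCs) labelled Null to 24 h of Chiron and Fgf8. It was taken from 4 CEL-seq libraries, 2 collected after 24 h and 2 collected at 0 h, out of 8 EpiSC libraries and 55 samples in the whole series. All 15807 genes of the count table were considered and the spike-in entries were left out. Of these genes, 9703 had enough reads to be tested, and the other genes are given only where a low count matters.

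The 0h groups were kept in Fgf-basic at 12 ng/mL, Activin A at 20 ng/mL and IWP2 at 2 µM, an inhibitor of Wnt secretion. For the 24h groups IWP2 was withdrawn, and Chiron at 3 µM and Fgf8 at 120 ng/ml were added. The labels give no dose of Fgf-basic or Activin A for the 24 h of treatment. No group was kept for 24 h without treatment, so Chiron, Fgf8, the loss of IWP2 and the added time cannot be told apart. Both steps followed at least a pair of passages without feeder cells. The Null lines came from CdxKO embryos isolated before the streak forms, at E6.0, with the extraembryonic tissue taken off, and were first grown on mouse embryonic fibroblasts. The labels do not spell out the Cdx alleles, and their culture text also mentions Wnt3 null EpiSCs, so the exact genotype is not stated beyond Null. They do not say whether the libraries of a group came from separate cultures or lines, so p-values measure only the spread between these libraries, which may be technical. WT EpiSCs treated in the same way, also 2 libraries per time, serve as the comparison.

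EpiSCs resemble the epiblast of the embryo after implantation and keep the pluripotency factors Pou5f1 and Sox2. In the embryo, Wnt3, Nodal and Fgf signals turn epiblast cells into primitive streak, marked by the T-box factor T and the homeobox factor Mixl1, from which mesoderm and endoderm emerge. Chiron inhibits Gsk3, the kinase that marks β-catenin for destruction, and so activates the targets of the Tcf and Lef factors. Cdx1, Cdx2 and Cdx4 are homeobox factors that act downstream of Wnt and Fgf in the posterior streak and regulate Hox genes.

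Library totals ran from 1114055 to 2914870 counts over the 8 EpiSC libraries. Among the Null libraries they were 1576867 and 1114055 at 0h and 2127961 and 1567035 at 24h. Levels below are CPM, that is counts per 1000000 after TMM normalization of the library sizes, in the order replicate 1 and replicate 2, and 3 counts correspond to 1.49 to 2.71 CPM in the Null libraries. Log2 differences are 24h minus 0h from edgeR's quasi-likelihood test. That test reports no standard error (SE). Each SE given is the size of the log2 difference divided by the square root of its F statistic, an approximation. A gene is said to rise or fall where the Benjamini-Hochberg adjusted p over all 9703 genes was below 0.05. The 10 genes with most counts held between 7.77% and 9.19% of each library.

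The epiblast markers were counted at 0h. Of 9 epiblast markers 8 were counted in both Null 0h libraries, and Nanog was at 0 counts in all 4 Null libraries. The summed level of the epiblast markers was 1948 to 2237 CPM at 0h and 331 to 377 CPM at 24h, while the sum of 7 streak and nascent mesoderm markers went from between 38.9 and 55 CPM to between 1484 and 1549 CPM. Markers of embryonic fibroblasts, the former feeder cells, summed to 102 to 119 CPM at 0h and 86.2 to 108 CPM at 24h, with 6 of 7 counted in both libraries at each time. Endoderm markers summed to 12 to 25.3 CPM and then 29.2 to 39.4 CPM, and neural markers to 41.1 to 52.4 CPM and then 13.4 to 19.4 CPM. Trophoblast, germ cell and blood markers stayed below 10 CPM in sum in every Null library, with Ddx4 at 0. Of these sets the count table held 2 of 4 trophoblast, 6 of 7 naive or germ cell and 3 of 4 blood markers. A longer naive and germ cell list, with 14 genes in the count table, summed to more. Its sums were 39.2 to 40.7 CPM at 0h and 70.4 to 72.9 CPM at 24h. Of its 2 tested members 1 rose, and this call was lost under some alternatives. The part of these other cell types in the results was not tested. Since the samples are bulk cultures, more cells of a type and more RNA of a gene per cell cannot be told apart in any result below.

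The Cdx genes were counted at low levels in the Null cells. Cdx2 (GRCm38.p6, chr5:147300900-147307249) was at 0 and 5.42 CPM at 0h and at 10.4 and 12.7 CPM at 24h, which is 0 and 6 counts against 21 and 19 counts. Both 24h libraries were above both 0h libraries. Its log2 difference was 2.31 (SE 0.71, edgeR adjusted p = 0.0237), and it did not pass under DESeq2 (adjusted p = 0.255) or without replicate 1 at 0h (0.34), replicate 1 at 24h (0.0701) or replicate 2 at 24h (0.0942). In WT cells Cdx2 was at 3.21 and 2.85 CPM and then 30.3 and 13.4 CPM, and the test of the difference in response did not pass (interaction log2 -0.6, SE 1.07, adjusted p = 0.908). Cdx1 was at 1.26 and 1.81 CPM at 0h and at 4.46 and 4.68 CPM at 24h and was too low to test. Cdx4 had 0 counts in all 4 Null libraries, and in WT 2 counts in replicate 2 at 0h. CEL-seq counts tags from the 3′ end of transcripts and the labels do not say which bases of the Cdx genes were removed, so these counts check neither the presence nor the loss of a working gene.

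After 24 h of treatment 891 genes were higher in Null EpiSCs and 916 were lower, while 7896 did not pass. The risen genes are 9.18% of the tested genes and the fallen ones 9.44%, the background for every count of list members below. A test needed about 6.1 CPM in 2 of the EpiSC libraries, so a gene low at 0h was tested only where it was higher elsewhere. Such a gene could hardly be called lower. Counts of rises and medians therefore lean upward in lists with many genes low at 0h. The response was led by genes of the primitive streak and of Wnt feedback on the rising side and by epiblast genes on the falling side. Of the called genes, 434 rose and 478 fell by more than 2-fold, and 115 rose and 51 fell by more than 8-fold. The median log2 difference was 0.97 over the risen genes, -1.03 over the fallen genes and 0.01 over all tested genes. Scaling by library totals without TMM moved the median of all genes to -0.06 and the calls to 719 higher and 1115 lower, or 39.2% higher in place of 49.3%. Without replicate 1 at 0h 554 genes were higher and 567 lower, and without replicate 1 at 24h 555 and 566.

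**Figure D1:**
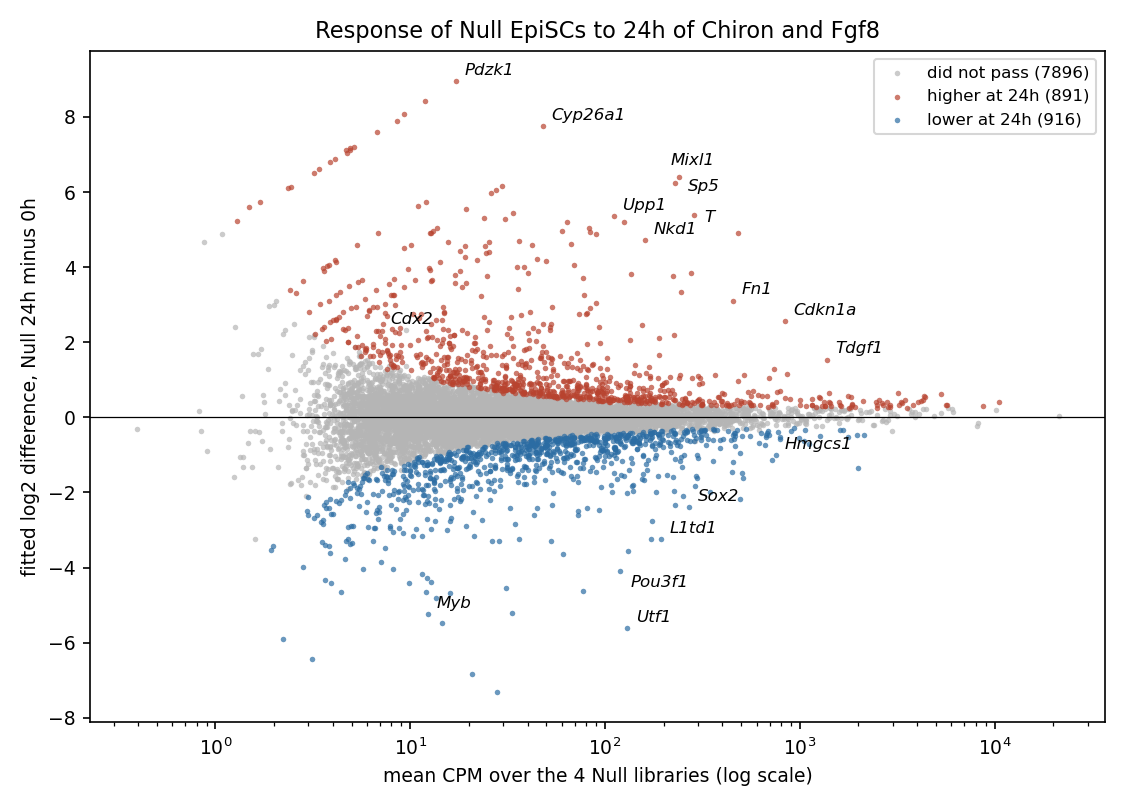
Each point is a tested gene of the Null EpiSCs, with its mean CPM over the 4 libraries on a log x axis and its fitted log2 difference (24h minus 0h) on the y axis. The 891 genes that rose are red and the 916 that fell are blue; the slanted lines of points at the upper left are genes with 0 counts at 0h, whose fitted differences depend on the model and are no bounds.

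The genes with the largest rises among those reaching 20 CPM held Cyp26a1, Mixl1, Sp5, Wif1, Fst, T, Upp1, Fgf10, Snai1, Lhx1, Gabrb2 and Pdzk1. Pdzk1, a scaffold protein of transporters, had 0 counts in both 0h libraries and stood at 37.2 and 31.4 CPM at 24h, at least 31.1-fold higher against a floor of 3 counts over the 0h group. The ratio of pooled counts was 63.5 for Gabrb2, a subunit of the GABA-A receptor, with a 95% counting interval of 11.1 to 2539, since it had 1 count at 0h. The largest falls included those of Ramp3, Calcr, Utf1, Foxd3, Myb, Enpp3, Shisa3, Cyp2b23, Trap1a, Slc35d3 and Gpr37. Ramp3, which modifies receptors of the calcitonin family, was at 60 and 51.5 CPM at 0h and at 0 and 0.669 CPM at 24h, a ratio of 199 (35.1 to 7894). Calcr, the calcitonin receptor, fell from 36 and 46.1 CPM to 0.496 and 0 CPM, a ratio of 141 (24.8 to 5624). Foxd3, a factor of pluripotent and neural crest cells, was at 26.5 and 30.7 CPM and then 0.496 and 0.669 CPM, a ratio of 49.6 (13.3 to 417). Each of these 3 genes had no more than 2 counts in the 24h libraries together, and the 0h and 24h libraries did not overlap. These intervals cover counting error only.

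Of 16 tested transcription factors of the primitive streak 13 rose, none fell and 3 did not pass. Their median log2 difference was 5, or 4.69 with genes at 0 counts at 0h set to their lower bound, against 0.01 for all genes. T (chr17:8434423-8442496), the T-box factor that defines the streak, was at 15.2 and 10.8 CPM at 0h and at 504 and 617 CPM at 24h (log2 difference 5.38, SE 0.19, edgeR adjusted p = 1.22e-20). Mixl1 (chr1:180693043-180697034) was at 5.69 and 5.42 CPM and then 493 and 452 CPM (log2 6.39, SE 0.23, adjusted p = 1.22e-20). Both genes were counted in every 0h library at a low level, and the 24h libraries lay far above them.

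Gsc, a homeobox factor of the anterior streak and organizer, was at 4.42 and 2.71 CPM at 0h and at 115 and 119 CPM at 24h. Eomes, a T-box factor needed for endoderm and cardiac mesoderm, was at 23.4 and 14.5 CPM and then 155 and 168 CPM, a log2 difference of 3.04. Evx1, a homeobox factor of the posterior streak, was at 5.06 and 0.904 CPM and then 119 and 130 CPM. Gsc of the anterior streak and Evx1 of the posterior streak were thus both high at 24h in the same cultures. This did not hold for every factor of the list, as Foxa2, given below, stayed low in every Null library. Tbx6, which directs cells to paraxial mesoderm, was at 5.06 and 4.52 CPM and then 184 and 139 CPM (log2 5.05, SE 0.29, adjusted p = 2.69e-15). Mesp1, a bHLH factor of early cardiac and cranial mesoderm, was at 0.632 and 2.71 CPM and then 27.8 and 40.8 CPM. Gata6, a zinc finger factor of endoderm and mesoderm, was at 4.42 and 3.61 CPM and then 74.8 and 58.2 CPM, and Gata4 went from 0 counts to 8.92 and 10.7 CPM, at least 8.67-fold higher. Lhx1, another organizer factor, had 1 count in the 0h libraries together and was at 23.3 and 20.1 CPM at 24h, a ratio of 58.9 (10.3 to 2358).

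The 3 tested streak factors that did not pass were Sall4, Foxa2 and Hand1. Sall4, which EpiSCs share with the streak, was at 372 and 356 CPM at 0h and at 413 and 354 CPM at 24h. Foxa2, the factor of definitive endoderm and notochord, was at 3.16 and 1.81 CPM and then 2.48 and 1.34 CPM. Hand1 was at 2.53 and 19.9 CPM at 0h, so the 0h libraries differed from each other more than from the 24h libraries, at 6.94 and 6.02 CPM. Mesp2, Msgn1, Nkx1-2 and Foxc2 were too low to test.

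Negative feedback genes of the Wnt pathway rose with the streak factors. Of 17 tested feedback inhibitors and targets 13 rose, 1 fell and 3 did not pass, with a median log2 difference of 4.06, or 2.12 with genes at 0 counts set to their bound. Sp5 is on both lists. Sp5, a zinc finger factor and direct Wnt target, was at 6.95 and 4.52 CPM at 0h and at 487 and 420 CPM at 24h (log2 6.24, SE 0.34, adjusted p = 2e-09). Nkd1, which binds Dishevelled and dampens the pathway, was at 11.4 and 11.7 CPM and then 309 and 308 CPM (log2 4.73, SE 0.18). Axin2, the inducible scaffold of the complex that destroys β-catenin, was at 3.16 and 0.904 CPM and then 50.6 and 46.8 CPM. Tnfrsf19, a receptor and Wnt target, was at 8.21 and 7.23 CPM and then 141 and 121 CPM. For each of these 4 genes no 0h library reached the level of a 24h library.

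The Tcf and Lef factors moved in both directions. Lef1, the activating member, was at 77.1 and 79.5 CPM at 0h and at 233 and 178 CPM at 24h (log2 1.4). Tcf7l1, which represses Wnt targets in the epiblast, was at 621 and 480 CPM and then 136 and 140 CPM (log2 -2, SE 0.2, adjusted p = 2.11e-06). It was the single fallen gene of the list. Myc, Ccnd1 and Tcf7l2, often named as Wnt targets, did not pass. Ctnnb1, which encodes β-catenin, was at 909 and 897 CPM and then 883 and 921 CPM and did not pass.

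Several start regions of these genes hold a Tcf and Lef motif. Windows of 300 bases, from 250 before to 50 after each RefSeq start (GRCm38.p6), were searched on both strands for CTTTGAT or CTTTGAA, and none of the motifs searched contains another. The 3 windows below were chosen after the matches were seen, as those of the streak and feedback genes with the largest rises that hold a match. They read 5′ to 3′ along the gene, and the capitals mark the match.
T, chr17:8434173-8434472, plus strand: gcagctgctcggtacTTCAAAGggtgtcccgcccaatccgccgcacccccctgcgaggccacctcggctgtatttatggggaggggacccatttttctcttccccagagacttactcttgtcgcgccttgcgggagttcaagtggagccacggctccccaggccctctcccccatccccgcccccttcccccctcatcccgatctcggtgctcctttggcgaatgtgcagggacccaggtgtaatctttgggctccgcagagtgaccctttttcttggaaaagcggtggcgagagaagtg
Sp5, chr2:70474673-70474972, plus strand: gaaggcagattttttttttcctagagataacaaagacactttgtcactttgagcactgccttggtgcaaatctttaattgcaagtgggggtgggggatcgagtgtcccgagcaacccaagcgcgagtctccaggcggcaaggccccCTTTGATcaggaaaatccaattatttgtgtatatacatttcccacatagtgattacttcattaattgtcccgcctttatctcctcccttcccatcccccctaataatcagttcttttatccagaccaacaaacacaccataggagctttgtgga
Dkk1, chr19:30549447-30549746, minus strand: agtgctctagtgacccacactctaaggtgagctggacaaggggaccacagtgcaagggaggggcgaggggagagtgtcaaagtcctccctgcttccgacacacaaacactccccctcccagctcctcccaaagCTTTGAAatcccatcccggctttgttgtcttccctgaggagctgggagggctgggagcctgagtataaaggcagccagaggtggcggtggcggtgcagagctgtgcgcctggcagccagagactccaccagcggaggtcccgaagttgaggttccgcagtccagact
In the T window the match lies on the other strand, and its first base is 235 bases before the start. In the Sp5 window it is 104 bases before the start and in the Dkk1 window 117. Among streak factors that rose and have a window, 4 of 10 hold the motif (Mesp1, Sp5, Sp8 and T), as do 3 of 8 risen feedback genes (Dkk1, Sp5 and Tnfrsf19). A gene can have several windows, and counted by window the shares are 33.3% for these streak factors and 25% for these feedback genes. Of all 32851 windows 8.65% hold it, of the windows of tested genes 5.86%, of those of risen genes 7.42% and of those of fallen genes 6.01%. The Cdx motif TTTATNG, with N for any base, is in the windows of 4 of the 10 streak factors (Evx1, Sp8, T and Tbx6). By window it is in 41.7% of those of the streak factors, 10.9% of all windows and 6.98% of those of risen genes. A match is a description of these letters and no measure of binding.

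**Figure D2:**
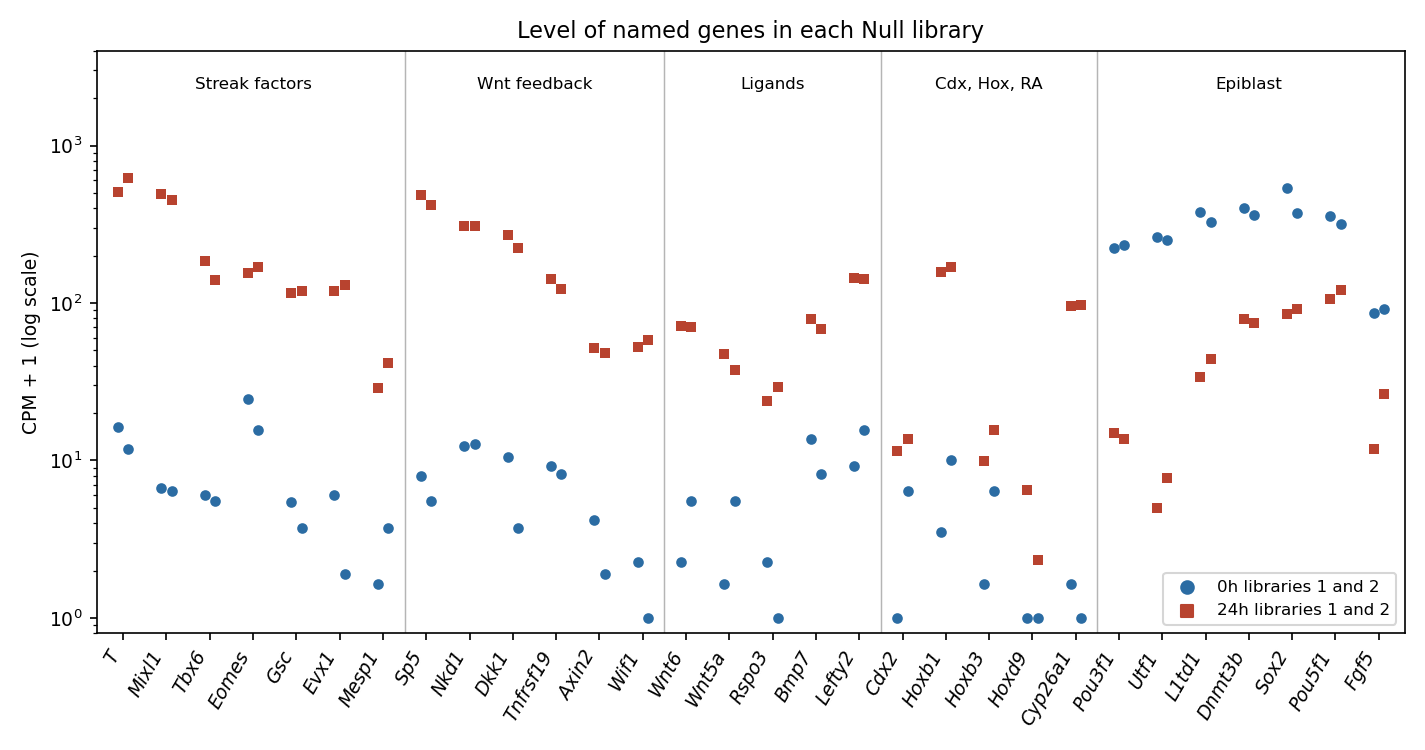
The points give CPM plus 1 (log y axis) of selected genes in each Null library, blue circles for the 0h libraries and red squares for the 24h libraries. T, Mixl1 and Sp5 reach 420 CPM or more at 24h in both libraries, while Pou3f1, Utf1 and Sox2 lie lower at 24h; the 0h libraries of Cdx2 are widely spaced.

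Genes of Wnt ligands and of their export rose as well, and receptors and antagonists were mixed. Of 9 tested ligands, R-spondins and export genes 8 rose and 1 fell, with a median log2 difference of 3.91. The count table held 16 genes of this list, and those too low to test are left out of these counts. Wnt3, Wnt6, Wnt5a, Wnt3a and Rspo3 did not reach 6.1 CPM in a Null 0h library and were tested for their levels elsewhere. The count of rises and the median thus lean upward. Wnt3, the ligand that starts the streak in the embryo, was at 4.42 and 4.52 CPM at 0h and at 16.4 and 24.1 CPM at 24h (log2 2.14, SE 0.47, adjusted p = 0.000955). Wnt6 went from 1.26 and 4.52 CPM to 70.4 and 68.9 CPM, and Wnt5a, a ligand of cell movement in the streak, from 0.632 and 4.52 CPM to 46.6 and 36.8 CPM. Wnt3a was low in all libraries, at 0 and 0.904 CPM and then 5.45 and 8.02 CPM, a ratio of 17.6 (2.86 to 725). Rspo3, a secreted enhancer of Wnt signals, rose to 22.8 and 28.1 CPM from 2 counts at 0h, a ratio of 33.7 (9.05 to 282). Wls, which carries Wnt proteins to the cell surface, rose by a log2 difference of 1.52. Wnt4 was the member that fell, with a log2 difference of -1.31. The call of Wnt3a was lost without replicate 1 at 0h (adjusted p = 0.136), and that of Wnt4 without replicate 2 at 0h (0.0868) or replicate 1 at 24h (0.0725). The 3′ tags of Wnt3 do not tell whether a working Wnt3 is made.

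Of 12 tested receptors 2 rose, 2 fell and 8 did not pass, with a median of -0.23. Fzd10, a receptor of the streak, went from 4.42 and 6.33 CPM to 99.1 and 88.3 CPM (log2 4.16), and Ror2, a receptor of Wnt5a, rose to 14.4 and 10 CPM. Fzd2 went from 251 and 216 CPM to 78.3 and 72.9 CPM (log2 -1.63), and Lrp6, a co-receptor, fell by 0.67 on the log2 scale. The call of Lrp6 was lost when any of the 4 Null libraries was left out (adjusted p from 0.0601 to 0.267). Of the 7 tested secreted antagonists 5 rose and 2 fell, with a median of 4.62, or 2.98 with bounds, and Dkk1, Dkk4, Wif1 and Notum are counted among the feedback genes as well. Dkk1, which blocks the co-receptors, was at 9.48 and 2.71 CPM and then 268 and 223 CPM (log2 5.2). Wif1, which binds Wnt proteins, was at 1.26 and 0 CPM and then 51.5 and 57.5 CPM, a ratio of 72.7 (19.9 to 605). Frzb rose by a log2 difference of 4.62, and Sfrp1 went the other way, from 131 and 141 CPM to 27.8 and 22.7 CPM (log2 -2.4).

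Fgf genes moved in both directions. Of 10 tested Fgf ligands and receptors 3 rose and 3 fell, with a median of 0.18. On the Fgf and Erk feedback list 3 of 16 tested members rose and 4 fell, with a median of 0.25. Fgf8 itself went from 17.7 and 9.04 CPM to 67.9 and 65.5 CPM (log2 2.25), which is transcript of the cells, since the added factor is a protein. Fgf10, a ligand of mesoderm, went from 1.26 and 1.81 CPM to 81.8 and 50.1 CPM. Fgf5, a marker of the epiblast, fell by 2.34 and Fgf4 by 2.98 on the log2 scale. Fgfr1, the main receptor in epiblast, was at 55.6 and 50.6 CPM and then 72.9 and 59.5 CPM and did not pass.

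On the feedback list Upp1, a marker fixed in advance, stood apart. It is an enzyme and not a feedback regulator of Fgf or Erk, and it is among the 3 rises counted above. Upp1 (chr11:9118008-9136170), uridine phosphorylase, was at 5.69 and 4.52 CPM at 0h and at 218 and 216 CPM at 24h (log2 5.36, SE 0.26, adjusted p = 1.68e-17). The other called members moved in both directions. Dusp6, the phosphatase of Erk, fell by 0.36 on the log2 scale, Spry1 by 0.86 and Etv5 by 0.68, while Dusp4 rose by 1.66 and Il17rd, an inhibitor of Fgf receptors, by 0.65. Spry2, Spry4, Etv4 and Egr1 did not pass. The 4 falls came down to 1 without replicate 1 at 0h and to 2 when any other single Null library was left out. Spry1 lost its call without each of the 4 libraries (adjusted p from 0.0994 to 0.196). Dusp6 lost it without replicate 1 at 0h (0.372), replicate 2 at 0h (0.0608) or replicate 2 at 24h (0.37), Etv5 without replicate 1 at 0h (0.132) Dusp4 without replicate 2 at 0h (0.0673) and Il17rd without replicate 1 at 24h (0.136).

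Nodal, the ligand of the Activin pathway, did not pass, at 18.3 and 12.7 CPM at 0h and 13.9 and 14 CPM at 24h, but 5 of 13 tested members of its pathway rose and 1 fell, with a median of 0.07. Tdgf1, the co-receptor Cripto, was at 756 and 646 CPM and then 2087 and 2011 CPM (log2 1.54, SE 0.1, adjusted p = 9.51e-14). Lefty2, an inhibitor of Nodal made by mesoderm, went from 8.21 and 14.5 CPM to 144 and 141 CPM (log2 3.71), and Lefty1 rose by 1.13. Fst, which traps Activin, went from 1.26 and 0 CPM to 45.1 and 57.5 CPM, a ratio of 67.7 (18.5 to 564). Of the risen genes named here Lefty1, Lefty2 and Fst are inhibitors. Smad7, an inhibitor inside the cell, fell from 13.3 and 3.61 CPM to 0.991 and 1.34 CPM, and its call was lost without replicate 1 at 0h (0.409) or replicate 1 at 24h (0.0551).

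In the Bmp pathway 8 of 13 tested members rose and none fell, with a median of 1.57. Bmp7 went from 12.6 and 7.23 CPM to 78.3 and 67.5 CPM (log2 2.81), and Bmp4, which patterns the posterior streak, from 1.9 and 0.904 CPM to 18.8 and 15.4 CPM. The targets Id1 and Id3 rose by 1.57 and 1.05, and Id2 did not pass. Msx1, another target, had 0 counts at 0h and was at 9.91 and 10.7 CPM at 24h, at least 9.19-fold higher. Bmpr1a and Bmpr2, receptors, did not pass.

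Cyp26a1 had the highest ratio of pooled counts among the called genes with 1 to 3 counts at one time. Cyp26a1 (chr19:37697738-37701536), the enzyme that degrades retinoic acid in the posterior embryo, had 1 count in the 0h libraries together and was at 94.2 and 96.3 CPM at 24h, a ratio of 256 (45.6 to 10128). Aldh1a2, which makes retinoic acid from retinal in mesoderm, was at 7.58 and 31.6 CPM at 0h and at 259 and 248 CPM at 24h (log2 3.83). Its 0h libraries differed by more than 4-fold. Crabp1, which binds retinoic acid, went from 31.6 and 59.6 CPM to 463 and 431 CPM (log2 3.35), and the receptor gene Rarg fell by 2.23. In all 6 of 12 tested members rose and 1 fell, with a median of 1.67. Genes of synthesis and of breakdown were both higher.

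Of 11 tested paraxial mesoderm genes 8 rose and none fell, with a median of 2.5. Besides Tbx6 these held Dll3, a Notch ligand of the presomitic mesoderm, at 24 and 16.3 CPM and then 158 and 124 CPM, and Foxc1, at 14.5 and 14.5 CPM and then 93.2 and 70.2 CPM. Dll3 and Aldh1a2 are also on other lists. Meox1, a gene of later somites, was at 6.95 and 11.7 CPM and then 3.47 and 8.69 CPM and did not pass, and Pax3 and Uncx were too low to test. Of the 15 tested Notch and clock genes 4 rose and 2 fell, with a median of 0.23. Hes1, a target of Notch, was at 165 and 138 CPM and then 346 and 318 CPM (log2 1.12), and Nrarp, a Notch feedback gene, rose by 1.54. Hes7 and Lfng, genes of the somite clock, did not pass. Of the 2 Notch falls 1 was called without replicate 2 at 0h or without replicate 1 at 24h. In lateral, extraembryonic and cardiac mesoderm 5 of 9 tested genes rose, led by Lmo2, a factor of blood and vessel progenitors, from 4.42 and 1.81 CPM to 81.8 and 80.9 CPM. Without replicate 1 at 0h 3 rose. The count table held 21 genes of this list, and those too low to test are left out of these counts. Lmo2 was low at 0h in both genotypes and was tested for its levels at 24h. A gene this low at 0h could hardly be called lower, so the count of rises leans upward.

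Hox genes give position along the body axis. Of the tested genes of groups 1 to 4, 5 of 8 rose, with a median of 1.88, but 2 under DESeq2 and 3 without replicate 1 at 0h. Hoxb1 went from 2.53 and 9.04 CPM to 157 and 168 CPM (log2 4.94, SE 0.28, adjusted p = 1.5e-15) and Hoxb2 from 3.16 and 0.904 CPM to 35.7 and 32.1 CPM. Hoxb3 was at 0.632 and 5.42 CPM at 0h and at 8.92 and 14.7 CPM at 24h (log2 2.1, adjusted p = 0.0104). Its 24h libraries lay above its 0h libraries, and its call was lost without replicate 1 at 0h (0.318) or replicate 2 at 24h (0.102), under DESeq2 and with counts thinned to equal totals.

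Of the 14 listed genes of groups 5 to 9, 4 were tested. Hoxd9, Hoxb8 and Hoxb9 did not reach 6.1 CPM in any Null library and entered the test through their WT 24h levels, and no gene of these groups was called in a fit of the 4 Null libraries alone. Hoxd9 had 0 counts at 0h and was at 5.45 and 1.34 CPM at 24h, at least 3.32-fold higher over the group, and Hoxb8 was at 5.95 and 0 CPM at 24h, with all its counts in 1 library. Both passed (adjusted p = 0.00908 and 0.0325), but neither did without replicate 1 at 0h (0.0999 and 0.188) or without replicate 1 at 24h (0.214 and 1). Hoxb8 also failed without replicate 2 at 0h (0.0927) and under DESeq2 (0.254). Hoxb9 was at 0 and 0.904 CPM at 0h, at 3.47 and 0.669 CPM at 24h and did not pass. In WT cells at 24h these genes were at 23 and 31.3 CPM (Hoxd9), 14.6 and 10.8 CPM (Hoxb8) and 20.2 and 11.5 CPM (Hoxb9). These values lie above both Null 24h libraries, but the filter admitted the genes through them, so this order carries no test. The interaction tests of Hoxd9, Hoxb8 and Hoxb9 did not pass (adjusted p = 0.859, 0.788 and 0.844). Hoxa5, the fourth gene, was at 29.1 and 22.6 CPM and then 28.2 and 30.1 CPM.

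The epiblast programme fell. Of 18 tested pluripotency genes 11 fell and 1 rose, with a median of -1.47, and these counts were the same under all 12 alternatives. Pou3f1 (chr4:124657646-124660655), a POU factor of the late epiblast and early neural tissue, was at 222 and 231 CPM at 0h and at 13.9 and 12.7 CPM at 24h (log2 -4.08, SE 0.19, adjusted p = 1.07e-17). Utf1, a chromatin protein of pluripotent cells, was at 260 and 250 CPM and then 3.96 and 6.69 CPM (log2 -5.62, SE 0.23). L1td1, an RNA-binding protein, was at 375 and 325 CPM and then 32.7 and 42.8 CPM. Every 0h library was above every 24h library for these genes. Dnmt3b, the DNA methyltransferase of the epiblast, was at 401 and 361 CPM and then 78.3 and 73.5 CPM (log2 -2.33), and Dnmt3a fell by 1.03.

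Sox2 and Pou5f1, the core factors, fell as well. Sox2 was at 536 and 370 CPM at 0h and at 84.3 and 90.9 CPM at 24h (log2 -2.38, SE 0.14), and Pou5f1 was at 355 and 316 CPM and then 105 and 120 CPM (log2 -1.58, SE 0.13). Both were still counted in each 24h library. Zic2, Lin28a and Sall4 did not pass. The 1 risen member was Tdgf1, given above with the Nodal genes.

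Of 14 tested neural and preneural genes 6 fell and none rose, with a median of -0.77, and these counts also were the same under the 12 alternatives. Sox3, a partner of Sox2 in neural progenitors, fell from 99.2 and 91.3 CPM to 7.93 and 12 CPM (log2 -3.29). Nes, an intermediate filament of progenitors, fell from 430 and 445 CPM to 146 and 149 CPM (log2 -1.57), and Sox1, the earliest neural marker, from 36.6 and 43.4 CPM to 8.92 and 15.4 CPM. Pou3f1 and Sox2 stand on both this and the pluripotency list. No neural gene on the list was higher.

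Some adhesion genes changed in the direction known for cells that leave an epithelium, though not across the list. Cdh1, E-cadherin, fell from 43.6 and 44.3 CPM to 15.4 and 22.7 CPM (log2 -1.23), and Cdh2, N-cadherin, rose from 19 and 25.3 CPM to 68.4 and 76.2 CPM (log2 1.73). Snai1, which represses E-cadherin, had 2 counts at 0h and was at 38.7 and 37.4 CPM at 24h, a ratio of 51.3 (13.9 to 428). Fn1, the matrix protein fibronectin, also the coating of the dishes, was at 80.9 and 111 CPM and then 913 and 714 CPM (log2 3.11, SE 0.15). Epcam fell by 1.78, while the laminin gene Lama1 rose by 3.48. Of 15 tested mesenchymal genes 6 rose and 3 fell (median 0.7), and of 14 epithelial genes 4 rose and 3 fell (median 0.27). The fallen mesenchymal genes, Sparc, Zeb1 and Vim, came down to 1 without replicate 1 at 24h. Of 11 tested fibroblast markers 3 rose and 3 fell, with a median of -0.18. Without replicate 1 at 24h 2 rose and none fell, and 1 fell without replicate 2 at 0h. Zeb1 also lost its call without replicate 1 at 0h (adjusted p = 0.127) and Vim without replicate 2 at 0h (0.228).

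Endoderm genes were mixed. Of 14 tested members 3 rose and 3 fell, with a median of 0.32, and 6 rose without replicate 2 at 0h. Cxcr4, a chemokine receptor of endoderm and mesoderm, went from 4.42 and 6.33 CPM to 82.8 and 68.2 CPM. The defining factor Sox17 was at 5.69 and 4.52 CPM at 0h and at 7.93 and 4.68 CPM at 24h and did not pass. The members that rose, Gata6, Gata4 and Cxcr4, are also genes of mesoderm. Of the notochord and node list 2 of 8 tested genes rose, T and Nog, and 1 fell, Sox9, while 1 rose without replicate 1 at 0h and 4 without replicate 2 at 0h. Nog was at 0.632 and 1.81 CPM at 0h and at 7.93 and 4.01 CPM at 24h. Of the Null libraries only replicate 1 at 24h reached 6.1 CPM, so Nog entered the test with the help of its WT levels. Those were 6.96 and 7.65 CPM at 24h. Ifitm1, a membrane protein of streak mesoderm, went from 21.5 and 44.3 CPM to 1023 and 840 CPM (log2 4.9, SE 0.17). Its neighbours in the family, Ifitm2 and Ifitm3, did not pass. On the short trophoblast list 3 of 4 tested genes rose, Eomes, Tfap2c and Cdx2. The 9 genes of this list in the count table summed to 34.1 to 44.3 CPM at 0h and 186 to 199 CPM at 24h. Of the 24h sums Eomes made up 155 and 168 CPM. The trophoblast marker sum given above, at most 2.48 CPM, comes from a different set, of which 2 markers were in the count table. The call of Nog was lost without replicate 1 at 0h (adjusted p = 0.278) or replicate 1 at 24h (0.33), and that of Tfap2c without replicate 1 at 0h (0.0793), where 1 trophoblast gene was left.

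**Figure D3:**
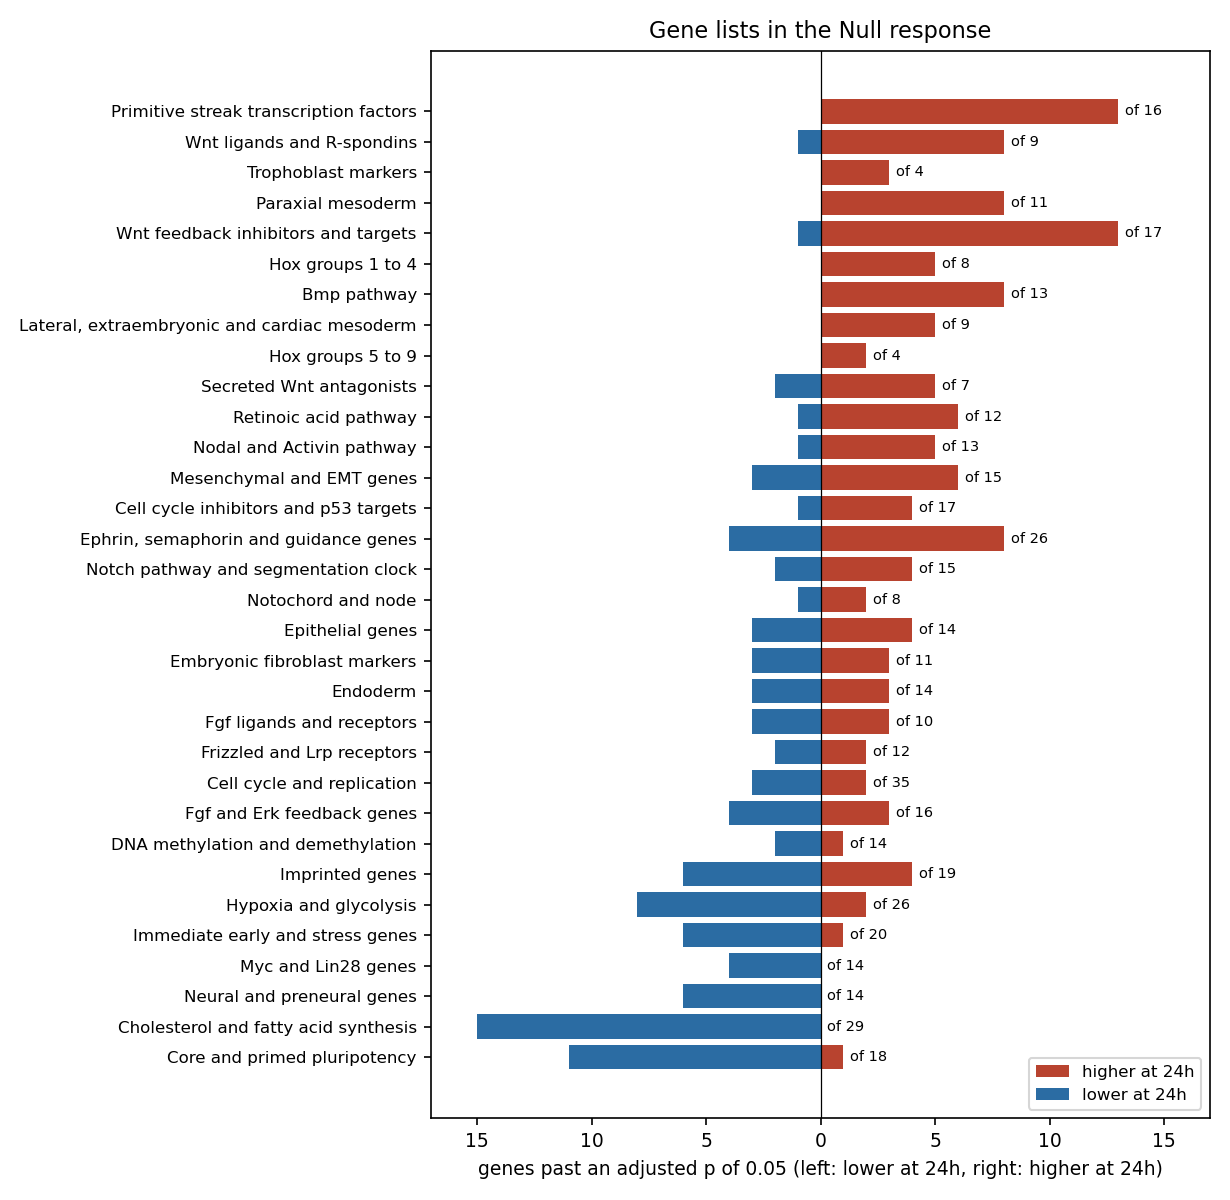
Bars count the tested members of each gene list that were higher (right, red) or lower (left, blue) at 24h in Null EpiSCs by an edgeR adjusted p of 0.05, with the number tested beside each bar. Lists are ordered by risen minus fallen members as a share of the tested ones, from streak factors (13 of 16 higher) to pluripotency genes (11 of 18 lower).

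The cell cycle list was close to flat. Of 35 tested genes of the cycle and of replication 2 rose and 3 fell, shares near or below the background, with a median of -0.17. When any single Null library was left out, 1 rose. Mki67, a marker of cycling cells, fell by 0.69, and Ccnd2, cyclin D2, rose by 1.04. Cdkn1a, the cyclin-dependent kinase inhibitor p21, was at 245 and 238 CPM at 0h and at 1409 and 1458 CPM at 24h (log2 2.57, SE 0.11, adjusted p = 3.7e-19). Of 17 tested inhibitors and p53 targets 4 rose and 1 fell, with a median of 0.34, and 2 rose when any single Null library was left out. Mdm2, Bax, Perp and Zmat3, further targets of p53, did not pass, with Mdm2 at 64.5 and 50.6 CPM and then 58 and 56.8 CPM. Besides Cdkn1a the risen genes were Btg2, Ccng1 and Cdkn1c, with log2 differences of 1.35, 0.34 and 0.54. Ccng1 and Cdkn1c were the genes that lost their calls without each of the 4 libraries, with adjusted p from 0.07 to 0.202 and from 0.0612 to 0.242.

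Many genes of cholesterol synthesis fell by small amounts. Of 29 tested genes of sterol and fatty acid synthesis 15 fell, none rose and 14 did not pass, with a median log2 difference of -0.47, and between 11 and 16 fell under the alternatives. Hmgcs1, the synthase that feeds the pathway, was at 1050 and 971 CPM at 0h and at 505 and 498 CPM at 24h (log2 -1.01, SE 0.1, adjusted p = 5.29e-10). Fdft1, squalene synthase, went from 348 and 331 CPM to 171 and 172 CPM (log2 -0.99), and Msmo1, listed as Sc4mol, from 621 and 694 CPM to 232 and 244 CPM (log2 -1.46). The libraries of a time lay close together, so falls of about 2-fold were well outside their spread. The regulators Srebf1 and Srebf2 did not pass. Among the enzymes of fatty acid synthesis Elovl6 fell by 0.67 (adjusted p = 0.0011) and Fasn by 0.42 (adjusted p = 0.0291), the latter not without replicate 1 at 0h (0.502) or replicate 2 at 24h (0.37), and Acly, Scd1 and Scd2 did not pass. WT cells gave 15 fallen genes on this list too, with a median of -0.51. Among the 9 fallen genes with a start window, Hmgcs1 alone holds the sterol element TCACNCCAC, searched on both strands. By window the element is in 8.33% of those of the 9 genes, 1.24% of all windows and 1.4% of those of fallen genes. The Hmgcs1 window is shown with the match, 137 bases before the start, in capitals.
Hmgcs1, chr13:119690101-119690400, plus strand: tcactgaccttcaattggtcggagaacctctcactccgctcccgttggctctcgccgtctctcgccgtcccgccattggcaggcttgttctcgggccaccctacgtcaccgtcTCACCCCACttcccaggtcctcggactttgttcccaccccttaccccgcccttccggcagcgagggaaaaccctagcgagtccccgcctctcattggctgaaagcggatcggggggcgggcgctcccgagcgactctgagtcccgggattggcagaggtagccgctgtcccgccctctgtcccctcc

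Of 26 tested genes of hypoxia and glycolysis 8 fell and 2 rose in Null cells, with a median of -0.27, and 5 fell without replicate 1 at 0h, without replicate 2 at 24h or under DESeq2. Slc16a3, a lactate exporter, fell from 34.8 and 37 CPM to 7.43 and 4.68 CPM (log2 -2.51), and Pfkm, a phosphofructokinase, from 66.3 and 42.5 CPM to 18.3 and 15.4 CPM. Egln3 and Ddit4, both known targets of Hif1, rose by 1.61 and 1.45. The abundant glycolytic genes Gapdh, Pkm, Ldha and Aldoa did not pass in Null cells. In WT cells 10 genes of the list rose and 1 fell, with a median of 0.17. These WT counts were not checked without replicate 1 at 24h. That library was the higher one for Bnip3 (168 against 93.1 CPM) and Pdk1 (34.8 against 18.5 CPM). The interaction was called for 2 of the 26 genes, Pdk1 and Bnip3. For the other genes the unlike counts of calls do not show a different response.

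**Figure D4:**
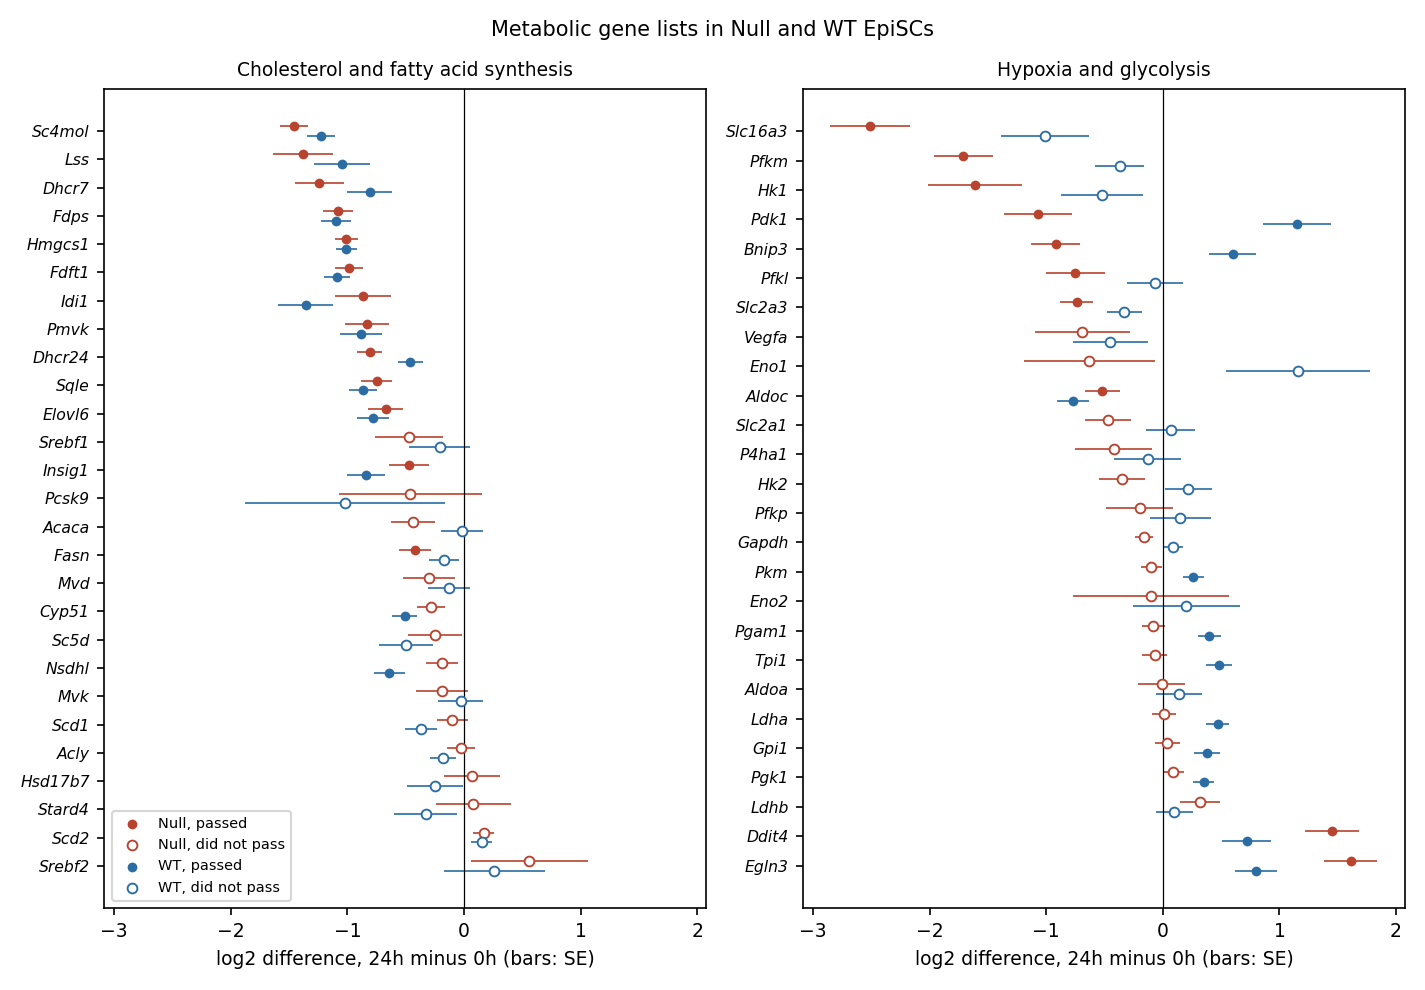
Tested genes of the cholesterol and fatty acid list (left, without those not reported by name here) and of the hypoxia and glycolysis list (right) are shown by their log2 difference (24h minus 0h) with its SE, red for Null and blue for WT, filled where the adjusted p was below 0.05. The falls of cholesterol genes overlap between genotypes, while Pdk1 and Bnip3 lie below 0 in Null and above 0 in WT.

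Imprinted genes, expressed from 1 parental copy, moved in both directions. Of 19 tested 6 fell and 4 rose, with a median of 0.23. The neighbours Meg3, Mirg and Rian fell, with Meg3 at 468 and 422 CPM and then 137 and 154 CPM (log2 -1.62). Nnat and Mest fell by 1.18 and 1.84. Phlda2, a growth regulator, was at 15.8 and 49.7 CPM at 0h and at 439 and 386 CPM at 24h (log2 3.76), and Slc38a4 rose by 2.65. Of the 4 rises 2 remained called without replicate 1 at 0h or without replicate 1 at 24h.

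Of 14 tested genes of the Myc and Lin28 list 4 fell and none rose, with a median of -0.32. The fallen genes were the kinases Pim1, Pim2 and Pim3 and the chromatin protein Hmga2. Pim2 was at 313 and 295 CPM at 0h and at 47.1 and 42.8 CPM at 24h (log2 -2.75, SE 0.15). Pim3 lost its call without replicate 1 at 0h (0.101) or replicate 1 at 24h (0.2). Myc and Mycn did not pass. Among 20 tested immediate early and stress genes 6 fell and 1 rose, with a median of -0.02, but only 2 fell without replicate 1 at 0h or without replicate 1 at 24h. Atf4, which drives amino acid genes under stress, fell by 0.5. Of 14 tested genes of DNA methylation 2 fell, Dnmt3a and Dnmt3b, and 1 rose, Gadd45g. Of 26 tested ephrin, semaphorin and guidance genes 8 rose and 4 fell, with a median of 0.42, and 2 fell without replicate 1 at 0h or without replicate 1 at 24h. Efna1 rose from 0 counts to 8.43 and 8.02 CPM, at least 7.4-fold. Among the Eph receptors, Epha4 was higher by 2.19 and Ephb3 lower by 1.42.

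The Null response was set beside that of WT cells, which shares no library with it. In WT 795 genes rose (8.19% of tested genes) and 837 fell (8.63%). Of the risen genes 499 were common, 56% of those of Null and 62.8% of those of WT, and of the fallen genes 508 were common, 55.5% and 60.7%. Called in opposite directions were Peg10, which rose in Null and fell in WT, and Bnip3 and Pdk1, which fell in Null and rose in WT. For Bnip3 the WT libraries overlapped between the times, with only replicate 1 at 24h above both 0h libraries. The test of the difference itself, the interaction of genotype and time, called 55 genes (0.567%), with a more positive response in Null for 33 and a more negative one for 22. This count fell to 18 without replicate 1 of Null at 0h, 19 without replicate 1 of Null at 24h, 27 and 30 without WT replicate 1 or 2 at 0h, and 23 under DESeq2, and rose to 93 without the filter on low counts.

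Streak genes were among those with the larger response in Null. T rose by 5.38 in Null and by 3.16 in WT, an interaction of 2.22 (SE 0.28, edgeR adjusted p = 4.36e-05) that passed under all 15 alternatives. Its WT levels were 51.4 and 54.1 CPM at 0h and 523 and 413 CPM at 24h, so Null was lower than WT in both libraries at 0h and overlapped WT at 24h. Upp1 was at 15.5 and 13.7 CPM in WT at 0h and at 128 and 89.3 CPM at 24h, an interaction of 2.44 (SE 0.43, adjusted p = 0.00306), which did not pass with counts thinned to equal totals (adjusted p = 0.0759). Null was below WT at 0h for Upp1 and above it at 24h. Mixl1 was at 11.8 and 14.2 CPM in WT at 0h and at 336 and 251 CPM at 24h, an interaction of 1.88 (adjusted p = 0.023), and failed without replicate 1 of Null at 0h (0.17), replicate 2 of Null at 0h (0.0704), replicate 1 of Null at 24h (0.0714) or either WT library at 0h (0.0619 and 0.163).

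The levels of the genotypes at each time were also compared for the genes with a called interaction. Of the 33 with the more positive response in Null, both Null 0h libraries were below both WT 0h libraries for 28 and above them for none. At 24h both Null libraries were above both WT libraries for 24. Of the 22 with the more negative response, Null was above WT at 0h for 13 and below it for 6. At 24h Null was below WT for 19 of the 22 and above it for 1. These counts describe genes picked by the same values, which favours such separation, and carry no test. Cyp26a1 was at 9.1 and 8.54 CPM in WT at 0h and at 65.1 and 45.9 CPM at 24h, and its interaction of 5.07 (adjusted p = 0.00109) rests on the 1 count in the Null 0h libraries. Gsc, Gata6, Eomes, Dll3 and Hes1 also had the larger response in Null, with interactions of 2.09, 2.3, 1.33, 1.34 and 0.82. Each of these 5 was lost under some alternatives, from 3 of 15 for Hes1 to 8 of 15 for Eomes. All 5 lost the call without replicate 2 of Null at 0h (adjusted p from 0.0664 to 0.197) or without replicate 1 of Null at 24h (from 0.0679 to 0.22). Tbx6, Axin2, Tnfrsf19, Hoxb1 and Cdkn1a did not pass, with interactions of -0.91, 0.4, 0.17, 0.72 and 0.03 and SEs of 0.71, 0.73, 0.41, 0.53 and 0.15.

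Nkd1 leaned the other way without passing. It reached 832 and 799 CPM in WT at 24h against 309 and 308 CPM in Null, from similar 0h levels of 14.5 and 17.1 CPM in WT, and the interaction was -0.96 (SE 0.32, adjusted p = 0.228). Genes with the more negative response in Null held Gsk3a, a target of Chiron. Gsk3a was at 232 and 243 CPM in Null at 0h and at 92.2 and 88.9 CPM at 24h, while in WT it was at 219 and 213 CPM and then 217 and 166 CPM. Its interaction was -1.23 (SE 0.19, adjusted p = 0.000819) and passed under all 15 alternatives, and the paralog Gsk3b did not pass in Null, in WT or in the interaction. Sox2 fell further in Null than in WT, with an interaction of -0.93 (SE 0.2, adjusted p = 0.0157), from WT levels of 422 and 406 CPM at 0h and 149 and 154 CPM at 24h. This call was lost without replicate 1 of Null at 0h (0.239), replicate 1 of Null at 24h (0.105) or either WT library at 0h (0.0552 and 0.0742).

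Myb, a factor of progenitor cells, was at 24.6 and 23.5 CPM in Null at 0h and at 0.496 and 0.669 CPM at 24h, a ratio of 42.5 (11.3 to 358). In WT it was at 16.1 and 21.6 CPM and then 4.52 and 7.65 CPM. Among the metabolic genes Pdk1, the kinase that restrains pyruvate dehydrogenase, was at 34.8 and 37 CPM and then 19.3 and 14 CPM in Null and at 11.2 and 14.2 CPM and then 34.8 and 18.5 CPM in WT (interaction -2.22, SE 0.41, adjusted p = 0.0039). Bnip3, a protein of mitochondrial turnover, had an interaction of -1.52 (adjusted p = 0.0148). The WT 24h libraries differed in both genes, with Bnip3 at 168 and 93.1 CPM, against 81.9 and 96.2 CPM in WT at 0h. The fall of Pdk1 in Null was lost without replicate 2 at 24h (0.0711) and its interaction without WT replicate 1 at 24h (0.118). The interaction of Bnip3 was lost without either Null library at 24h (0.108 and 0.0773) or either WT library at 0h (0.129 and 0.064). Peg10, an imprinted gene of retrotransposon origin, was at 11.4 and 13.6 CPM and then 27.3 and 24.7 CPM in Null and at 51.4 and 54.7 CPM and then 27.1 and 24.2 CPM in WT (interaction 2.11, SE 0.35, adjusted p = 0.0013). The genotypes thus differed in Peg10 at 0h and overlapped at 24h. The rise of Peg10 in Null was lost without replicate 1 at 0h (0.121) or replicate 1 at 24h (0.069). Igf2 fell in both, by 0.6 in Null, where the call was lost without replicate 1 at 24h (0.132), and by 1.85 in WT.

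**Figure D5:**
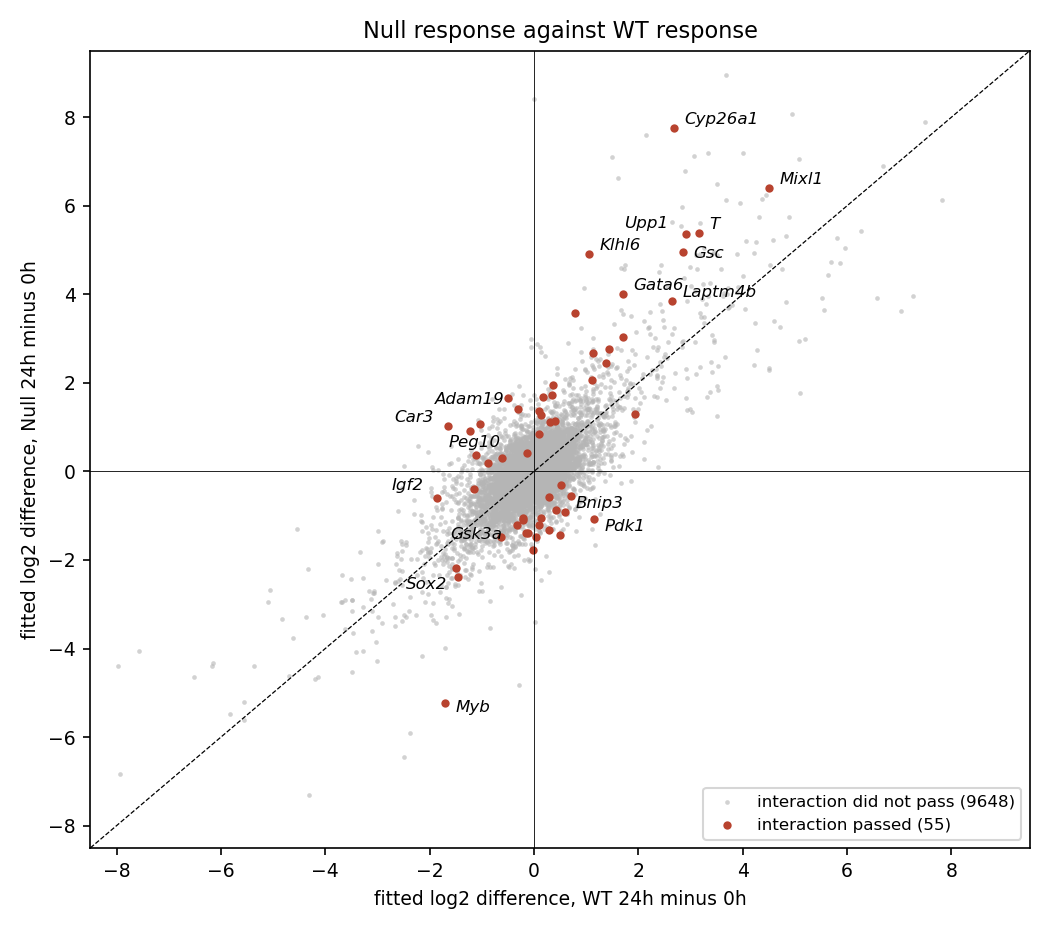
Each point is a tested gene, with its fitted log2 difference (24h minus 0h) in WT on the x axis and in Null on the y axis, and the dashed line marks equal responses. The 55 genes whose interaction passed are red, among them T, Mixl1, Upp1 and Cyp26a1 above the line and Gsk3a, Sox2 and Myb below it.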

How the data were processed

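RNA was measured by CEL-seq, with libraries made from 10 ng RNA per the labels' protocols. The deposited table holds raw counts per gene and library, with reads placed on mm10 per the submitters' processing notes; the aligner is not given in the sources used here. The 8 spike-in entries (2 counts in all) were left out, and 99.6% of gene symbols were found in the RefSeq gene table of GRCm38.p6, the source of positions and start windows. No strand setting is stated, so antisense pairs cannot be told apart.

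All 8 EpiSC libraries were fitted with edgeR 4.0.16 and limma 3.58.1 in R 4.3.3 (filterByExpr, which here asks for 6.1 CPM in 2 libraries, TMM scaling, robust glmQLFit, glmQLFTest, 1 mean per group, 4 residual degrees of freedom, common biological coefficient of variation 0.081). DESeq2 1.42.0, other scalings and filters, thinning, a replicate block and leaving out each library were the alternatives. The code was tested on simulated data. Folds against 0 counts are lower bounds from 3 pooled counts, and folds against 1 to 3 counts are ratios with exact 95% intervals, all TMM-scaled. The members and the 35 gene lists were chosen with earlier results of these data known. Named are the Cdx genes, T, Mixl1, Upp1 and Pou3f1, the 12 largest rises and 12 largest falls reaching 20 CPM, up to 4 genes per list and up to 8 interaction genes by smallest p. The other members named beside them were chosen after their values were seen. Some list members are counted but not reported by name here. ChIP, ATAC and embryo data were not used here.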

Additional observations from a re-analysis of the deposited data

Results flagged for a closer look

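These genes were picked out because the interaction of genotype and time passed in edgeR's quasi-likelihood test, which is to say that the 24 h response of Null EpiSCs differed from that of WT. The log2 interaction (Null response minus WT response) was 2.22 for T, 1.88 for Mixl1, 2.44 for Upp1, 5.07 for Cyp26a1, 2.09 for Gsc, 2.3 for Gata6, 1.33 for Eomes, 1.34 for Dll3, 0.82 for Hes1, 1.55 for Plxna2, 1.73 for Adam19, 1.58 for Lgalsl, 1.24 for Igf2 and 2.11 for Peg10. It was -0.93 for Sox2, -1.23 for Gsk3a, -1.76 for Pim1 and -3.53 for Myb.

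Lgalsl, a galectin-like protein, was at 29.1 and 38 CPM in Null at 0h and at 129 and 126 CPM at 24h, against 45.5 and 52.4 CPM and then 57.4 and 70.8 CPM in WT. Adam19, a membrane protease, was at 19.6 and 23.5 CPM and then 63.4 and 49.5 CPM in Null, while WT went from 49.8 and 41 CPM to 38.3 and 34.4 CPM. Plxna2, a semaphorin receptor, was at 8.85 and 9.04 CPM and then 59 and 55.5 CPM in Null, against 19.3 and 17.6 CPM and then 37.9 and 44 CPM in WT. Pim1 fell from 68.2 and 49.7 CPM to 14.4 and 21.4 CPM in Null and was at 38.5 and 21.1 CPM and then 33.8 and 23.6 CPM in WT. Without 1 library the interaction was lost for Plxna2 in 7 of 8 cases (adjusted p up to 0.246), for Pim1 in 4 (up to 0.185) and for Myb in 5 (up to 0.236). For Adam19 it was lost without replicate 1 of Null at 0h (0.0504) or at 24h (0.0588).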

How the results depend on the processing

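Rises and falls numbered 891 and 916, and 515 and 515 under DESeq2, all of them among the main calls. Leaving out a Null library gave 554 to 690 rises and 566 to 734 falls. Interaction calls numbered 55, and 23 under DESeq2, 93 without the low-count filter, and 18 to 82 without 1 library. Of 142 tested named genes 134 passed, and 112 did so under each of up to 12 alternatives that gave a value. The log2 sign turned for Ifitm2 (0.04, and -0.03 without TMM, -0.04 thinned, -0.03 to 0.09 without 1 library) and Hand1 (-0.61, and -1.59 to 1.36 without 1 library), where the cause was not tested. Hoxb8 (5.61) was at 0 to 6.46 without 1 library, with 0 where the library that holds all its Null counts was left out. The replicate block gave 1072 rises, 1054 falls and 144 interaction calls; same-numbered libraries share only a label, with deviations correlated at 0.1 in Null and 0.19 in WT over 5863 genes. At these depths genes that did not reach about 6.1 CPM in 2 libraries were not tested, which left out most Hox genes of groups 5 to 9.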

Other observations

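A few genes, chosen after their values were seen, differed between the genotypes at both times. Pmaip1, the proapoptotic protein Noxa, was at 29.7 and 25.3 CPM in Null at 0h and at 40.6 and 40.1 CPM at 24h, and below 1 CPM in all 4 WT libraries. Tdgf1 was at 31 and 26.2 CPM in WT at 0h and at 55 and 64.4 CPM at 24h, far below its Null levels of 756 and 646 CPM and 2087 and 2011 CPM. Cdkn1c, an imprinted inhibitor of the cell cycle, was at 59.4 and 65.1 CPM and then 83.8 and 97.6 CPM in Null, and at 9.1 and 12 CPM and then 5.92 and 10.8 CPM in WT. For these 3 genes the levels of the genotypes did not overlap at either time, and the interaction did not pass.

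The replicates of Null at 0h differed by 4-fold or more, with 20 CPM or more in the higher library, in 4 genes. Among them Aldh1a2 and Krt18 were higher in replicate 2, with Krt18, a keratin of simple epithelia, at 5.69 and 35.2 CPM, and Mycl1 was lower there, at 20.9 and 4.52 CPM. At 24h 2 genes differed in this way in Null, Car4 and Tmcc3, and in WT 0 did at 0h and 1 did at 24h.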
